A study of Mus musculus with 4 samples.

Results

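Mitochondrial ribosomal protein genes were taken from the gene tables by symbol, as every symbol that begins with Mrpl or Mrps followed by a number, leaving out symbols of pseudogenes that contain -ps. The rule gave 78 of 31748 symbols, 49 Mrpl genes of the large subunit and 29 Mrps genes of the small subunit. Of these, 77 passed a filter on low counts and were tested, among 12752 genes in all. The rule goes by symbol and uses no measured value, though it was set with earlier results of these data known.

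The mitochondrial ribosome translates the few mRNAs of the mitochondrial genome, which encode membrane subunits of the respiratory chain and ATP synthase. Its RNAs come from the mitochondrial genome, while all of its proteins are encoded in the nucleus, made in the cytosol and imported. Part of them descend from proteins of the bacterial ribosome, mostly with the bacterial numbers, and others were gained in mitochondria and carry higher numbers, which some bacterial relatives carry too. T cells enlarge their mitochondria and raise mitochondrial translation after activation, and Mthfd2, an enzyme of the folate cycle inside mitochondria, is among the genes they induce.

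The data were 4 RNA-seq libraries of mouse cells, 2 labelled wild type (WT) and 2 labelled Mthfd2 knockout (KO), and WT and KO below are the labels of the libraries. All were labelled as spleen CD4+ T cells from 8-week-old donors carrying the transgenic T cell receptor TEa (TEaWT or TEaMthfd2 KO), isolated on magnetic beads by positive selection. They had been kept for 3 days with mitomycin-treated antigen-presenting cells sorted from spleens of F1 (BALB/c x C57BL/6) animals, which were also 8 weeks old, so RNA of the presenting cells can be present as well. The labels give neither the promoter of a Cre or transgene, nor the deleted part of Mthfd2, nor whether replicates were separate animals or cultures. P-values therefore cover only the variation among the 4 libraries, part or all of which may be technical. The question is which transcripts differ without Mthfd2 in T cells that respond to foreign spleen cells.

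Total counts per library ran from 14191401 to 15955863. Mthfd2 stood at 280 CPM (counts scaled to a common library total, adjusted by edgeR's TMM factors) in each WT library and at 222 and 252 CPM in the KO libraries, a log2 fold change of -0.24 that was not called (edgeR adjusted p = 0.324). Since the deleted part is not known, this count over the whole gene does not check the labels. Cd8a exceeded Cd4 in every library, with 474 to 616 CPM against 134 to 193 CPM, contrary to a label of CD4+ T cells. Summed over fixed marker lists, B cell markers stood at 1408 and 884 CPM in the WT and 502 and 457 CPM in the KO libraries, and MHC class II markers at 4167 and 2485 against 1317 and 1148 CPM. Erythroid markers stood at 127 and 32.3 CPM in the WT and 6.86 and 3.08 CPM in the KO libraries. Plasma cell markers stood at 142 and 72.5 against 62.4 and 47.2 CPM, with 3 negative and 2 positive fold changes among those tested. Myeloid and dendritic cell markers stood at 54.5 and 33.9 against 19.3 and 13.7 CPM, with 5 negative and 2 positive. Of these, Spi1 alone had 27.4 and 19.3 against 4.95 and 3.15 CPM. NK cell markers stood at 10.3 and 9.06 against 9.47 and 8.03 CPM, with 2 negative and 2 positive. T cell markers stood at 2235 and 2418 CPM in the WT and 3234 and 3408 CPM in the KO libraries. The WT replicates also differed in genes of dividing cells, with 2205 CPM in WT replicate 1, 5255 CPM in WT replicate 2 and 6260 and 7044 CPM in the KO libraries. In such mixed samples, fewer cells of a type and less RNA per cell cannot be told apart, and the part of these differences in the values of the ribosomal protein genes was not tested.

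Upstream sequences of 5 members are shown because they hold the kinds of promoter element found in these genes, and because Mrps18b, Mrpl17 and Mrpl52 were among the members lowest in KO, while Mrpl45 had a higher value in KO and Mrpl12 carries an element of the regulator NRF1. Each is the 120 bases before the first annotated transcript base, written 5′ to 3′ on the strand of the gene, from a RefSeq table of assembly GRCm38.p6. Capitals mark a match to NRF1, ETS or SP1, as defined after the sequences. The windows are chr17:35916441-35916560 on the minus strand for Mrps18b, chr7:105811100-105811219 on the minus strand for Mrpl17, chr14:54426789-54426908 on the plus strand for Mrpl52, chr11:97315596-97315715 on the plus strand for Mrpl45 and chr11:120484493-120484612 on the plus strand for Mrpl12.
Mrps18b: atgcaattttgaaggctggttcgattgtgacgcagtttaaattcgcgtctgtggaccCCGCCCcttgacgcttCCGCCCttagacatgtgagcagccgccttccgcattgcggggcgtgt
Mrpl17: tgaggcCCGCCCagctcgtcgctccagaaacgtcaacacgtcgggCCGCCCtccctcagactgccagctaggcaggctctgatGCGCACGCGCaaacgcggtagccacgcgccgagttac
Mrpl52: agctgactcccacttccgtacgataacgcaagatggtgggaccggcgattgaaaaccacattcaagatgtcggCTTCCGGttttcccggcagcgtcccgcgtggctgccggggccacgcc
Mrpl45: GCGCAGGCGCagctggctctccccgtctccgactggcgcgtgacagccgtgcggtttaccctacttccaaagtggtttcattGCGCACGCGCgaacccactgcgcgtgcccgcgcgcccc
Mrpl12: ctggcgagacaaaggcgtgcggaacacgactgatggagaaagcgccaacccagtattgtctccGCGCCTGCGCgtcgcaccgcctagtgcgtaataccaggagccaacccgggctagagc
Promoter windows of 300 bases, 250 before to 50 after the start site, were found in that table for 69 of the 78 members, in 75 windows. They were searched on both strands for the element of NRF1, a regulator of nuclear genes for mitochondria, which reads GCGCA and GCGC with any 1 base between them. It was present in 17.3% of the members' windows, against 4.60% of all 32851 windows of the table and 10.2% of the windows of genes tested here. The core CCGGAAG of ETS family factors was present in 34.7% of the members' windows, against 8.86% of all windows and 18.2% of those of tested genes. AAGATGGCG, the element of YY1, was present in 10.7% of the members' windows, against 1.40% and 3.08%. CACGTG, the E-box that MYC and related factors bind, was present in 9.33% of the members' windows, against 7.15% and 10.0%. The shares count windows and not genes, and several overlapping windows of Mrpl2 hold the same E-box. GGGCGG, the SP1 element, was present in 52.0%, against 35.7% and 62.0%. The shares of NRF1, ETS and YY1 letters were higher than among tested genes and those of the E-box and SP1 letters were not, at a median GC content of 58.7% in the members' and 60.7% in the tested genes' windows. No test was made of these shares. NRF1 letters were present in 20.8% of the windows of Mrpl genes and in 11.1% of those of Mrps genes. The 5 motifs have different letters, and a match is a description of the sequence, not a site in use.

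Many members share a start region with another coding gene. Of the 77 members tested, 33 (42.9%) had a coding gene on the opposite strand whose annotated start lies within 1000 bases, upstream or overlapping, against 1919 of 11280 tested coding genes (17.0%). The share was 50.0% of the Mrpl genes (24 of 48) and 31.0% of the Mrps genes (9 of 29). Mrpl46 and Mrps11, 1 protein of each subunit, start head to head on chromosome 7, so that each is the partner of the other. Mrps12 starts 172 bases from Sars2, the mitochondrial seryl-tRNA synthetase, Mrpl43 overlaps the start of Twnk, the mitochondrial DNA helicase, and Mrpl36 and Mrpl47 overlap the starts of Ndufs6 and Ndufb5, subunits of respiratory complex I. Of the 33 partners, 30 were tested and 0 were called by edgeR in either direction, against 3.95% of all tested genes. Of these 30, 18 had a fold change of the same sign as the member, and their median was -0.04.

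Levels of different genes were compared as RPKM, which is CPM divided by the length of the principal GENCODE transcript in kilobases. The tested members had a median of 34.4 RPKM with quartiles of 16.6 and 57.5 RPKM, against a median of 11.2 RPKM over all tested genes with a length. Mitochondrial translation factors had a median of 12.3 RPKM and mitochondrial aminoacyl-tRNA synthetases also 12.3 RPKM. Nuclear-encoded subunits of the respiratory chain had a median of 72.5 RPKM and genes with symbols of cytosolic ribosomal proteins 57.4 RPKM. The last list was taken by symbol, as Rpl or Rps followed by a number, or Rplp. That pattern also matches S6 kinases (Rps6k), so its values are not those of ribosomal proteins alone. Most proteins of a ribosome are present in equal numbers. The mean levels of the members' mRNAs here ran from 1.91 RPKM to 112 RPKM. The lowest was Mrps36, which in mammals belongs to another complex, as given below, and the next lowest was Mrps25 with 5.17 RPKM. The upper quartile of the members was 3.46 times the lower quartile. It was 14.7 times in the list of cytosolic ribosomal symbols, whose lowest gene had 0.157 RPKM.

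**Figure D1:**
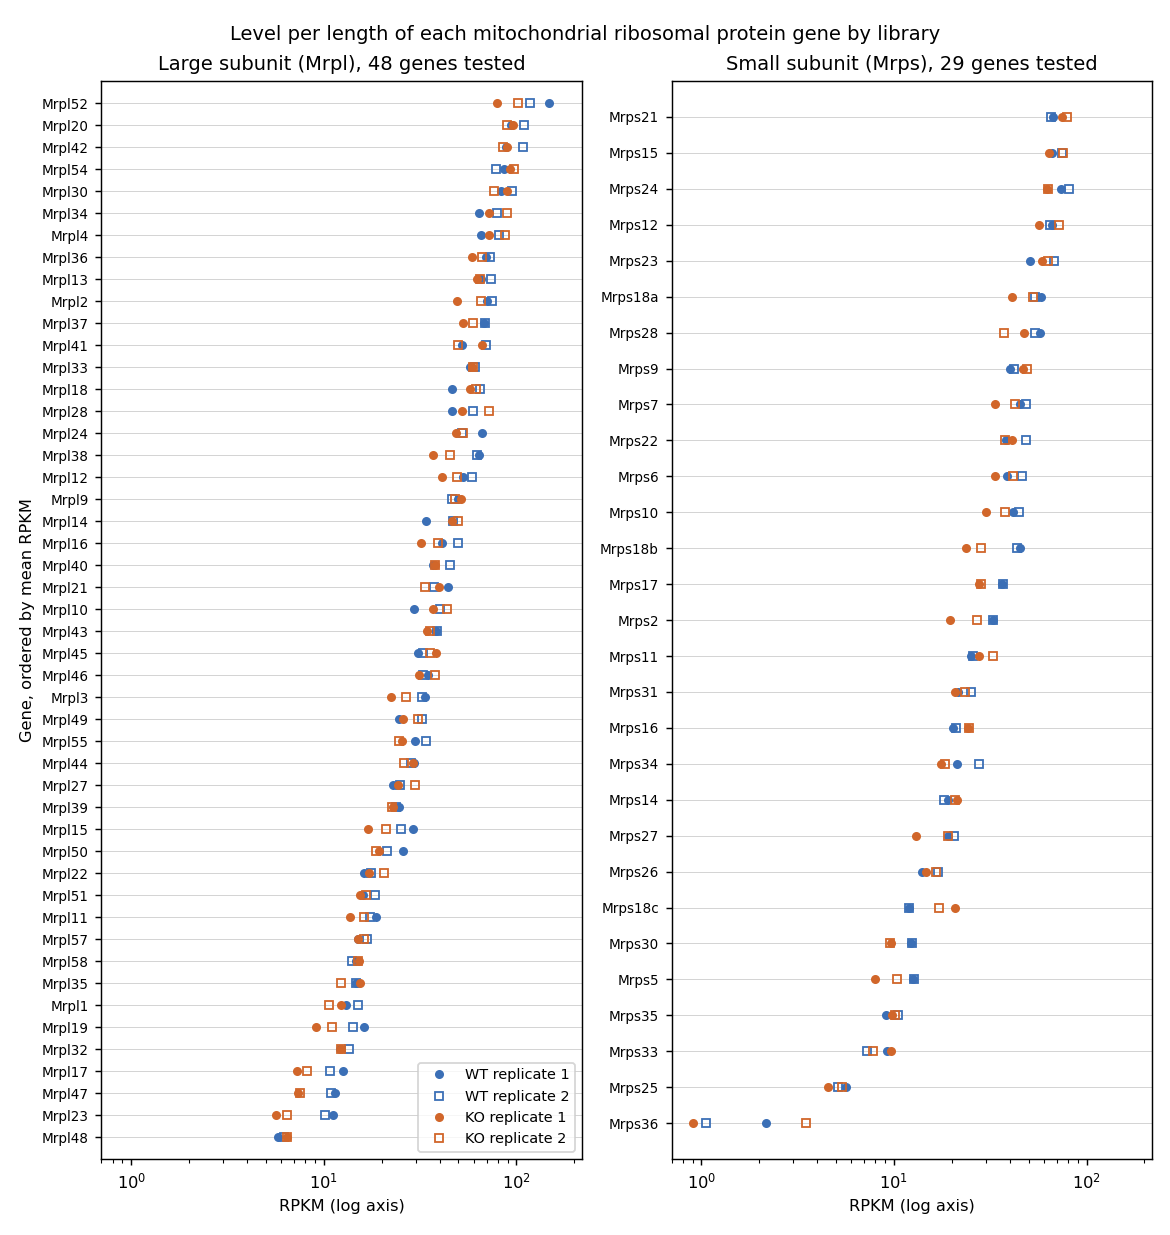
Level of each tested member in each library, in RPKM on a log axis, with Mrpl genes on the left and Mrps genes on the right, ordered by mean. The 4 symbols of a gene lie close together relative to the range between genes, and Mrps36 is the lowest gene with the widest spread.

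The 4 large-subunit genes with the highest mean level were Mrpl52 (112 RPKM), Mrpl20 (96.9 RPKM), Mrpl42 (92.6 RPKM) and Mrpl54 (88.6 RPKM), of which Mrpl20 descends from a bacterial protein and the other 3 carry higher numbers. The lowest were Mrpl48 with 6.22 RPKM and Mrpl23, a protein at the exit of the peptide tunnel, with 8.35 RPKM. In the small subunit Mrps21 (71.8 RPKM), Mrps15 (70.1 RPKM), Mrps24 (70.1 RPKM) and Mrps12 (65.0 RPKM), which sits in the decoding centre, were highest. Mrps36 with 1.91 RPKM and Mrps25 with 5.17 RPKM were lowest. Of the exon bases of Mrps25, 58.2% are shared with the opposite-strand gene Nr2c2, and a pseudogene copy was found. How such reads were counted is not known, so the level of Mrps25 is uncertain. Neighbours in this order were often not separated, as the values of Mrps21, Mrps15 and Mrps24 overlapped between libraries. The order depends on the transcript length taken from the annotation, which was 418 bases for Mrpl52 and 6073 bases for Mrps25. It was nearly the same in all libraries, with a Spearman correlation of the 77 levels of 0.980 between the WT libraries, 0.978 between the KO libraries and 0.946 to 0.974 between a WT and a KO library, a description over genes that share libraries and lengths.

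Genes with low numbers, as bacterial proteins have them (Mrpl up to 36, Mrps up to 21), and genes with higher numbers were set side by side. These classes go by number and not by origin, since Mrpl47 and Mrps24, for example, have bacterial relatives. In the large subunit, the 28 tested genes with bacterial numbers had a median of 42.3 RPKM and the 20 with higher numbers 31.2 RPKM. In the small subunit the 16 with bacterial numbers had a median of 36.8 RPKM and the 13 with higher numbers 17.97 RPKM. The quartiles of the classes overlapped in the large subunit (17.5 to 60.6 RPKM and 20.0 to 53.8 RPKM) and in the small subunit (26.4 to 46.1 RPKM and 9.87 to 41.4 RPKM). Their fold changes had nearly the same medians, -0.13 and -0.10 in the large and -0.10 and -0.11 in the small subunit.

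Of the 77 members tested, 0 were called lower and 0 higher in KO by edgeR's quasi-likelihood test at a Benjamini-Hochberg adjusted p under 0.05, while 1.56% of all tested genes were called lower and 2.39% higher, 3.95% in all. At an unadjusted p under 0.05, 12 members were lower (15.6%, against 12.7% of all tested genes) and 1 was higher (1.3%, against 12.8%). DESeq2 called 3 members lower (Mrps18b, Mrpl38 and Mrpl17) and 0 higher, against 6.14% and 6.74% of all genes, and limma-voom called 0 in either direction, against 1.7% and 2.95%. Without WT replicate 2, edgeR called 5 members lower, Mrps18b, Mrpl38, Mrpl17, Mrpl19 and Mrpl52 (6.49%), and 0 higher. In that setting it called 8.45% of all genes lower and 10.7% higher, so the members' share of lower calls was not above the background. It called 0 members without any other library, and 0 genes in the whole table without KO replicate 1 or without KO replicate 2.

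The members' fold changes were small and mostly negative. Of the 77, 51 (66.2%) had a negative log2 fold change of KO over WT and 26 a positive one, with a median of -0.11, while 50.2% of all tested genes were negative with a median of -0.0026. Of the members, 68 lay between -0.5 and 0.5, 8 lay below and 1 above. The 95% interval lay within a 2-fold change for 69 of 77 members (89.6%), against 53.0% of all tested genes, many of which have fewer counts and wider intervals. Both KO libraries lay below both WT libraries for 32 members (41.6%, against 30.1% of all genes), above them for 10 (13.0%, against 29.8%), and the groups overlapped for 35. The median stayed negative under all 11 alternatives, but its size rested on the WT libraries, with -0.19 without WT replicate 1 and -0.03 without WT replicate 2.

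The large and the small subunit were alike in the direction of these values. In the large subunit 33 of 48 genes were negative, with a median of -0.11, quartiles of -0.31 and 0.06 and a range from -0.83 to 0.25. In the small subunit 18 of 29 genes were negative, with a median of -0.11, quartiles of -0.34 and 0.09 and a range from -0.77 to 0.66. Both KO libraries lay below both WT libraries for 20 large-subunit genes (41.7%) and 12 small-subunit genes (41.4%), against 30.1% of all tested genes. The KO libraries lay above both WT libraries for 4 (8.33%) and 6 (20.7%), against 29.8% of all tested genes. Single libraries moved these medians, to -0.18 without WT replicate 1 and -0.02 without WT replicate 2 in the large subunit, and to -0.19, -0.03, -0.03 and -0.23 without WT replicate 1, WT replicate 2, KO replicate 1 and KO replicate 2 in the small subunit. In mammals Mrps18a and Mrps30 sit in the large subunit despite their symbols, and Mrps36 belongs to the 2-oxoglutarate dehydrogenase complex. With these moved or left out, the medians were -0.12 for the large and -0.10 for the small subunit.

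**Figure D2:**
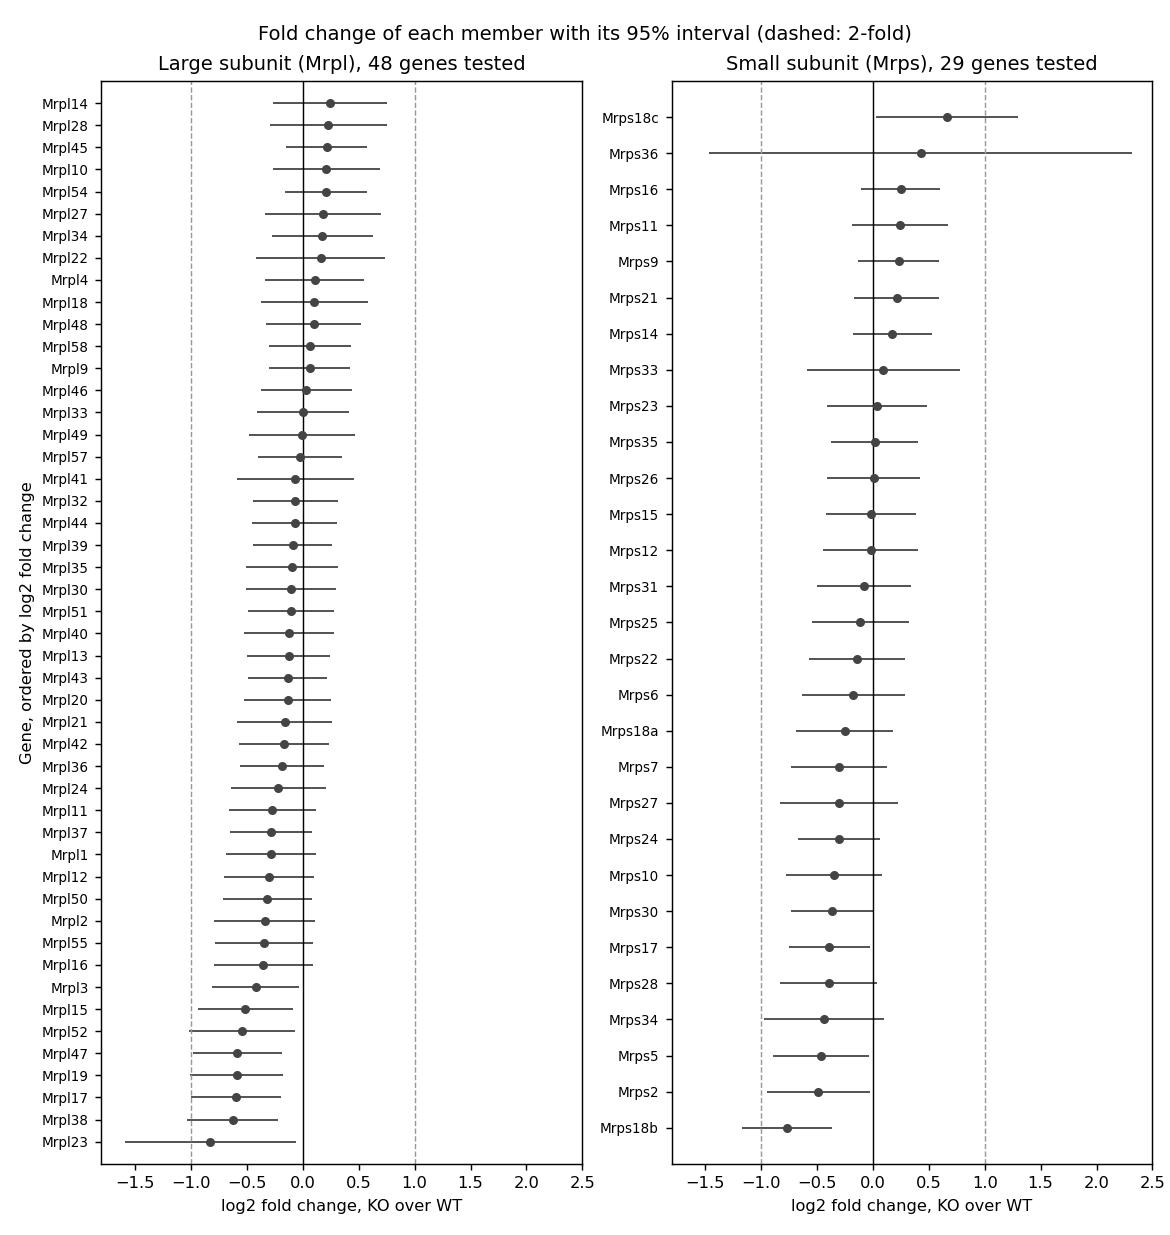
Log2 fold change of KO over WT for each tested member with its 95% interval (edgeR, 2 libraries per group), with Mrpl genes on the left and Mrps genes on the right, and dashed lines at a 2-fold change. Most intervals include 0, and 8 of the 77 reach beyond 2-fold, among them Mrps18b below and Mrps18c above.

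The summed level gave the same picture. The large-subunit genes together had 2734 and 2861 CPM in the WT and 2426 and 2599 CPM in the KO libraries. The small-subunit genes had 1313 and 1402 CPM in the WT and 1168 and 1299 CPM in the KO libraries. Both KO libraries lay below both WT libraries in each sum. Within a library, the median log2 CPM of the large subunit exceeded that of the small. By symbol the excess was 0.23 and 0.26 in the WT and 0.44 and 0.33 in the KO libraries, without overlap. With Mrps18a and Mrps30 counted as large and Mrps36 left out, the large-subunit medians were 5.72 and 5.77 in the WT and 5.60 and 5.66 in the KO libraries. The small-subunit medians were then 5.55 and 5.56 in the WT and 5.28 and 5.45 in the KO libraries. In that assignment the excess was nearly the same in WT replicate 2 and KO replicate 2, so that the groups only just overlapped. With 2 libraries per group an exact permutation test cannot go below p = 0.333, so the excess was not tested between the groups. Per length and by symbol, the median of the large subunit was 34.4 and 38.1 RPKM in the WT and 35.6 and 36.8 RPKM in the KO libraries. That of the small subunit was 32.7 RPKM in each WT library and 24.2 and 28.4 RPKM in the KO libraries. The large-subunit values thus overlapped between the groups, and the small-subunit values did not. The medians per length were not taken in the other assignment.

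**Figure D3:**
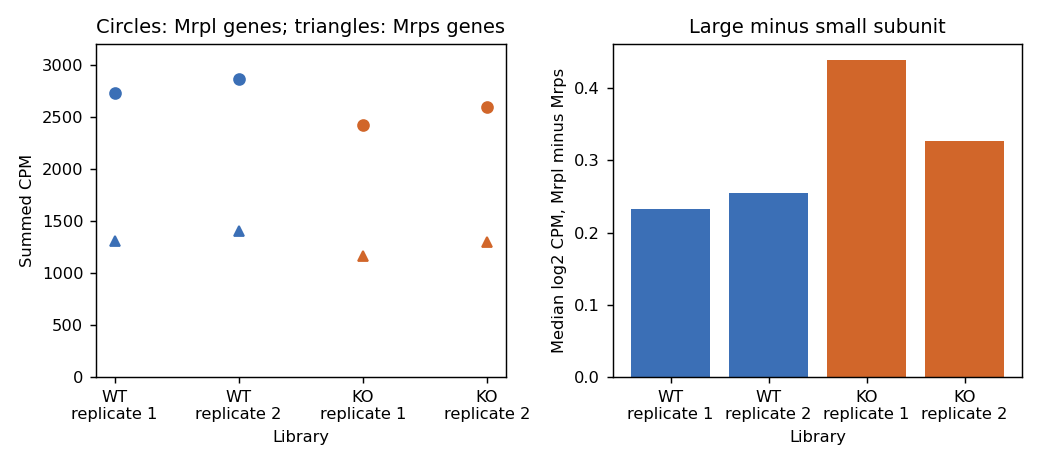
Left, summed CPM of the Mrpl genes (circles) and Mrps genes (triangles) in each library. Right, the median log2 CPM of the Mrpl genes minus that of the Mrps genes in each library, which was 0.23 and 0.26 in the WT and 0.44 and 0.33 in the KO libraries.

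Mrps18b had the smallest p of all members. Mammals have a family of 3 proteins related to bacterial S18, Mrps18a, Mrps18b and Mrps18c, of which Mrps18b and Mrps18c sit at different places in the small subunit. Mrps18b stood at 48.8 and 47.0 CPM in the WT and 25.7 and 30.6 CPM in the KO libraries, a log2 fold change of -0.77 ± 0.17 (SE, n = 2 per group) just outside the threshold (edgeR adjusted p = 0.0544). Both KO libraries lay well below both WT libraries. Its adjusted p was 0.0101 with DESeq2, 0.0275 in edgeR without the filter on low counts, where 3.72% of all genes were called lower and 4.02% higher, and 0.0270 in edgeR without WT replicate 2, and between 0.0506 and 0.389 under the other alternatives.

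Mrps18c, its paralog, stood at 7.64 CPM in each WT library and at 13.2 and 11.0 CPM in the KO libraries. It was the only member with a higher value in KO at an unadjusted p under 0.05, with a log2 fold change of 0.66 ± 0.26 that was not called (edgeR adjusted p = 0.179). It was also the only member with a fold change above 0.5, and its KO libraries lay above its WT libraries. Mrps18a stood at 51.2 and 47.9 CPM in the WT and 36.3 and 46.8 CPM in the KO libraries, with a log2 fold change of -0.25 ± 0.18 (edgeR adjusted p = 0.422). The 3 paralogs thus had a value below 0, a value above 0 and a value nearer to 0. Their head-to-head partners lay near 0, with Ppp1r10, 45 bases from Mrps18b, at -0.04 ± 0.16 and Helq, 29 bases from Mrps18c, at -0.04 ± 0.18, and the difference between a member and its partner was not tested. Of the exon bases of Mrps18b, 59.1% are shared with the opposite-strand gene Gm16279, and reads there cannot be told apart without knowing how strand was used. Of those of Mrps18c, 27.3% are shared with Gm43511 on the same strand, where strand does not tell reads of the shared bases apart.

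The other small-subunit genes at an unadjusted p under 0.05 were Mrps2, Mrps5 and Mrps17, all relatives of bacterial proteins, of which Mrps5 lies near the entry of the mRNA. Mrps2 stood at 68.0 and 67.9 CPM in the WT and 40.8 and 56.2 CPM in the KO libraries (log2 fold change -0.49 ± 0.19, edgeR adjusted p = 0.179). Mrps5 stood at 56.0 and 56.8 CPM against 35.6 and 46.2 CPM (log2 fold change -0.46 ± 0.18, edgeR adjusted p = 0.172). Mrps17 stood at 79.1 and 80.7 CPM against 60.0 and 62.1 CPM (log2 fold change -0.39 ± 0.15, edgeR adjusted p = 0.170). In each of them the WT libraries agreed closely and both KO libraries were lower.

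In the large subunit 8 genes were lower at an unadjusted p under 0.05. Mrpl38, a protein of the central protuberance, where the ribosome meets the tRNAs, stood at 90.2 and 87.9 CPM in the WT and 51.8 and 63.5 CPM in the KO libraries (log2 fold change -0.63 ± 0.17, edgeR adjusted p = 0.0838). Mrpl17, which lies near the peptide exit, stood at 91.8 and 78.8 CPM against 52.8 and 60.0 CPM (log2 fold change -0.60 ± 0.17, edgeR adjusted p = 0.0914). Mrpl47, the relative of bacterial L29 at the rim of the exit, stood at 38.3 and 36.8 CPM against 24.7 and 25.3 CPM (log2 fold change -0.58 ± 0.17, edgeR adjusted p = 0.0921). In all 3 the KO libraries lay below the WT libraries without overlap. Of the exon bases of Mrpl47, 18.1% are shared with the opposite-strand genes Actl6a and Ndufb5, and how reads there were counted is not known. The upstream sequence of Mrpl17 printed above holds 1 NRF1 and 2 SP1 matches, that of Mrps18b holds 2 SP1 matches and no NRF1 match.

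Mrpl19 stood at 80.8 and 71.0 CPM in the WT and 45.5 and 55.3 CPM in the KO libraries, and Mrpl15 at 122 and 106 CPM against 71.6 and 88.4 CPM. Mrpl52, the most abundant member per length, stood at 61.4 and 49.3 CPM in the WT and 33.2 and 42.7 CPM in the KO libraries. Mrpl3, near the site of peptide bond formation, stood at 133 and 128 CPM against 88.3 and 106 CPM. The log2 fold changes of these 4 genes were -0.59, -0.51, -0.55 and -0.42, with edgeR adjusted p of 0.101, 0.139, 0.154 and 0.168. Their groups did not overlap, though KO replicate 1 was lower than KO replicate 2 in each of them. Of the exon bases of Mrpl19, 39.2% are shared with the opposite-strand gene Gcfc2, and how reads there were counted is not known.

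Mrpl23 had the lowest fold change of all members, at 7.76 and 7.03 CPM in the WT and 3.89 and 4.44 CPM in the KO libraries (log2 fold change -0.83 ± 0.32, edgeR adjusted p = 0.171). Its pseudogene Mrpl23-ps1 had more counts than the gene itself, with 61.0 and 51.4 CPM in the WT and 51.8 and 52.5 CPM in the KO libraries and a log2 fold change of -0.11. How reads of near-identical copies were assigned is not given in the sources used here, so the level of Mrpl23 is uncertain. A pseudogene copy of at least 200 bases at 95% identity was found for 18 of the 78 members, an exon overlap with another gene for 24, and either for 36.

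The highest values of the large subunit were small. Mrpl14 stood at 22.0 and 30.1 CPM in the WT and 29.7 and 32.1 CPM in the KO libraries, with a log2 fold change of 0.25 ± 0.21. Mrpl28 stood at 49.5 and 63.5 CPM against 55.6 and 76.8 CPM, with 0.23 ± 0.22, and both of these overlapped between the groups. Mrpl45, which anchors the ribosome to the inner membrane where the new proteins are inserted, stood at 74.9 and 79.8 CPM in the WT and 92.8 and 86.7 CPM in the KO libraries, with 0.21 ± 0.15 and no overlap. None of these 3 passed the test, with edgeR adjusted p between 0.418 and 0.552. The upstream window of Mrpl45 holds 2 NRF1 matches, and that of Mrpl12, with a value below 0, holds 1.

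Genes of the stalks, which bind translation factors and move tRNAs, were considered next. Mrpl12 of the factor-binding stalk stood at 69.1 and 77.0 CPM in the WT and 54.2 and 64.3 CPM in the KO libraries, with a log2 fold change of -0.30 ± 0.17. Mrpl10, which holds Mrpl12 in the ribosome, stood at 50.4 and 68.3 CPM against 62.9 and 74.5 CPM, with 0.21 ± 0.20 and overlapping groups. Mrpl11 at the base of this stalk had -0.27 ± 0.16 and Mrpl1 of the other stalk -0.29 ± 0.17, both without overlap. The adjusted p of these 4 genes in edgeR lay between 0.305 and 0.549. Mrpl10 and Mrpl12, which bind each other, had values of opposite sign, and the 95% intervals of all 4 genes included 0.

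Other large-subunit genes with a known role lay near 0. Mrpl39, which resembles a threonyl-tRNA synthetase, had a log2 fold change of -0.09 ± 0.15, and Mrpl44, which has the fold of an RNA-cutting enzyme, had -0.07 ± 0.16. Mrpl58, a release-factor relative that can free peptides from stalled ribosomes, had 0.06 ± 0.15, with 38.3 and 36.6 CPM in the WT and 39.4 and 38.9 CPM in the KO libraries. Mrpl18, the relative of the bacterial protein that holds 5S rRNA, had 0.10 ± 0.20 with WT values of 56.3 and 78.9 CPM on either side of the KO values of 69.8 and 75.6 CPM. The 95% intervals of these 4 ran from -0.45 to 0.59 in all, so changes of 2-fold lie outside them.

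In the small subunit, Mrps16, Mrps22 and Mrps34 are genes in which inherited variants cause mitochondrial disease in people. Mrps16 stood at 52.0 and 53.7 CPM in the WT and 62.1 and 63.4 CPM in the KO libraries, with a log2 fold change of 0.25 ± 0.15 and no overlap. Mrps34 stood at 19.5 and 25.3 CPM against 16.2 and 17.0 CPM, with -0.44 ± 0.22 and no overlap. Mrps22 stood at 45.9 and 58.3 CPM against 49.2 and 45.1 CPM, with -0.14 ± 0.18 and overlapping groups. None of the 3 was called, with edgeR adjusted p of 0.336, 0.270 and 0.658, and they did not share a direction.

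Among the other small-subunit genes, Mrps12 of the decoding centre had -0.02 ± 0.18 and Mrps7 of the head -0.30 ± 0.18. Mrps27, which carries RNA-binding repeats, had -0.31 ± 0.22. Mrps30, found in the large subunit, stood at 40.9 and 41.2 CPM in the WT and 32.1 and 31.7 CPM in the KO libraries, with -0.37 ± 0.16 and an edgeR adjusted p of 0.201. Mrps36 had between 9 and 34 counts per library, with 25 and 11 in the WT and 9 and 34 in the KO libraries, and its log2 fold change of 0.43 ± 0.79 turned to -0.83 without KO replicate 2. At this depth a change of Mrps36 was not detectable. Mrpl53 had 0 counts in all 4 libraries, where a count of 0 allows up to 3 counts or 0.183 to 0.215 CPM. All 695 bases of its exons are shared with the annotated genes Ccdc142os and Gm42688, so a value of 0 in this table is not known to mean that it was not transcribed.

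The mitochondrial ribosome also holds proteins whose genes have other names, and 0 of 5 of these were called, against 3.95% of all tested genes. Ptcd3, an RNA-binding protein of the small subunit, stood at 145 and 125 CPM in the WT and 102 and 105 CPM in the KO libraries (log2 fold change -0.38 ± 0.15, edgeR adjusted p = 0.182). Dap3, a GTP-binding protein of the small subunit, had 0.19 ± 0.16, Chchd1 -0.02 ± 0.17, Aurkaip1 0.08 ± 0.15 and Gadd45gip1, in the large subunit, -0.33 ± 0.18. Their median was -0.02.

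The genes that build and serve the ribosome had lower medians than its proteins. Of 30 genes for assembly and rRNA modification, edgeR called 0 and DESeq2 called 4 lower, against 6.14% of all tested genes. At an unadjusted p under 0.05 in edgeR, 8 were lower and 0 higher, against 12.7% and 12.8% of all tested genes, and the median log2 fold change was -0.38, against -0.0026 over all tested genes. The list includes Nop9, which is known from the nucleolus and had -0.37 ± 0.19. Mtg2, a GTPase of large-subunit assembly, stood at 47.6 and 39.6 CPM in the WT and 25.5 and 20.8 CPM in the KO libraries (log2 fold change -0.92 ± 0.19, edgeR adjusted p = 0.0517). Mtg1, another assembly GTPase, stood at 29.0 and 32.3 CPM against 18.6 and 15.2 CPM (log2 fold change -0.86 ± 0.21, edgeR adjusted p = 0.0641). Fastkd2, which binds the large rRNA, and Dhx30, an RNA helicase of the mitochondrial RNA granules, had -0.67 ± 0.16 and -0.62 ± 0.17 (edgeR adjusted p = 0.0629 and 0.0805). All 4 were lower in both KO libraries than in both WT libraries.

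Of 24 tested translation factors and mRNA-handling proteins, 0 were called, against 3.95% of all tested genes, and the median was -0.23. At an unadjusted p under 0.05 in edgeR, 4 were lower and 0 higher, against 12.7% and 12.8% of all tested genes. Lrpprc, which stabilises mitochondrial mRNAs, stood at 227 and 247 CPM in the WT and 145 and 192 CPM in the KO libraries (log2 fold change -0.49 ± 0.18, edgeR adjusted p = 0.148). Of 17 mitochondrial aminoacyl-tRNA synthetases 0 were called, against 3.95% of all tested genes, and the median was -0.21. Their edgeR unadjusted p was under 0.05 in 0 genes, against 12.7% lower and 12.8% higher of all tested genes. Negative fold changes were found in 14 of the 17 (82.4%), against 50.2% of all tested genes. Of 16 tested genes of mitochondrial transcription and its nuclear regulators, 2 fell and 0 rose, against 1.56% and 2.39% of all tested genes. Pprc1, a coactivator of the PGC-1 family, stood at 295 and 266 CPM in the WT and 125 and 153 CPM in the KO libraries (log2 fold change -1.01 ± 0.16, edgeR adjusted p = 0.0397), and Myc fell by 1.49 on the log2 scale (edgeR adjusted p = 0.0397). Nrf1, whose element was searched above, stood at 59.1 and 69.3 CPM in the WT and 81.2 and 87.3 CPM in the KO libraries, a difference that was not called (log2 fold change 0.39 ± 0.16, edgeR adjusted p = 0.195).

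The mRNAs that the mitochondrial ribosome translates, and the nuclear genes of the respiratory chain, were set beside it. Of the 13 mRNAs of the mitochondrial genome, edgeR called 0, against 3.95% of all tested genes. At an unadjusted p under 0.05 in edgeR, 5 were higher and 0 were lower, against 12.8% and 12.7% of all tested genes. Of the 13, 12 had a positive fold change, with a median of 0.44. DESeq2 called 3 of them higher, against 6.74% of all tested genes. mt-Co1 stood at 7266 and 9000 CPM in the WT and 12686 and 10709 CPM in the KO libraries (log2 fold change 0.52 ± 0.21, edgeR adjusted p = 0.176). Reads of these genes can be shared with copies in the nuclear genome. Of 82 tested nuclear-encoded subunits of the respiratory chain, 1 rose and 0 fell, against 2.39% and 1.56% of all tested genes. Of the 82, 66 were positive, and the median was 0.21. The gene that rose was Ndufv3 of complex I, with 28.6 and 38.3 CPM in the WT and 111 and 97.1 CPM in the KO libraries (log2 fold change 1.64 ± 0.20, edgeR adjusted p = 0.0250). Of 98 tested genes with symbols of cytosolic ribosomal proteins, by the pattern given above that also matches S6 kinases, 1 fell, against 1.56% of all tested genes. It was Rpl10a (log2 fold change -0.78 ± 0.15, edgeR adjusted p = 0.0430), and the median of the list was -0.09. The members' medians in both subunits therefore lay below that of the respiratory chain and above that of the assembly genes. They lay near that of the list of cytosolic ribosomal symbols. These differences between lists were not tested. Without KO replicate 1, and also without KO replicate 2, edgeR called 0 genes in these lists and 0 in the whole table, and without WT replicate 2 it called 26 genes in these lists, and 1127 lower and 1432 higher in the whole table, against 199 and 305 with all libraries.

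**Figure D4:**
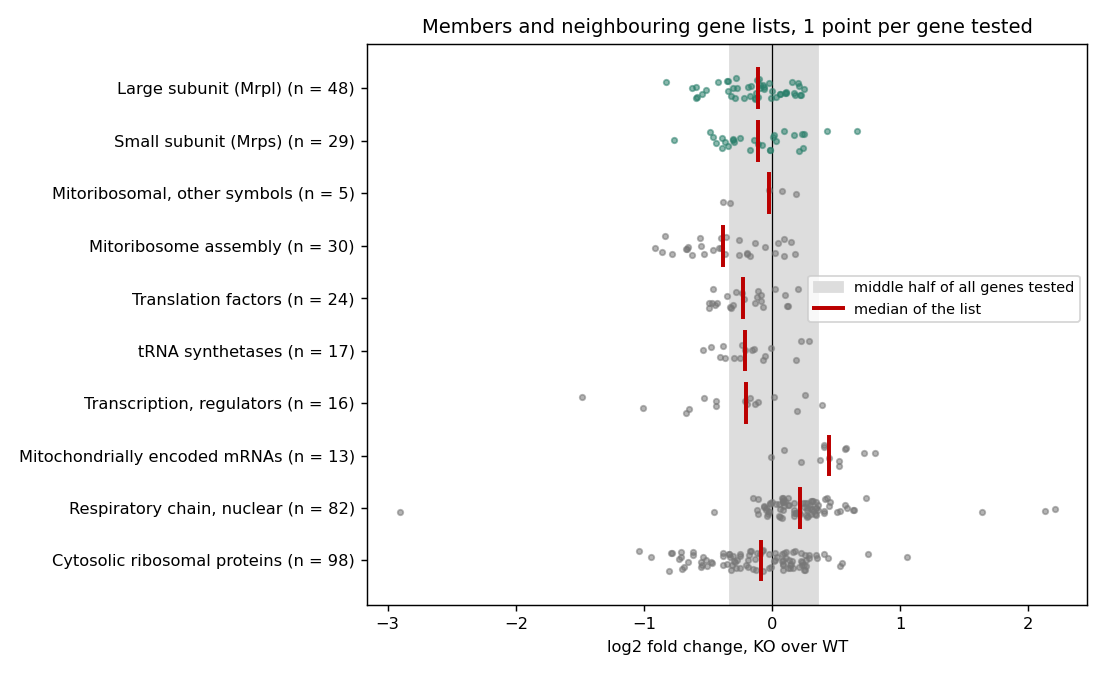
Log2 fold change of KO over WT for every tested gene of the 2 subunits and of 8 related lists, with the median of each list in red and the range between the quartiles of all tested genes in grey. The medians run from -0.38 for mitoribosome assembly to 0.44 for mitochondrially encoded mRNAs, with both subunits at -0.11.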

How the data were processed

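Total RNA was depleted of ribosomal RNA and sequenced, per the labels' protocols. The authors deposited 1 table per library of whole-number read counts per gene symbol, not normalized. Subread 2.0.1 with featureCounts, R 4.0.4, DESeq2 1.30.1 and build mm10 appear in the submitters' processing notes. The aligner, annotation, strand setting and handling of multiply mapped reads were not given in the sources used here.

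Low counts were removed with filterByExpr (at least 10, total at least 15). Libraries were scaled by TMM and compared by edgeR's quasi-likelihood test (edgeR 4.0.16, R 4.3.3, no covariate, 4 libraries), with Benjamini-Hochberg adjustment over all 12752 genes and calls at 0.05. CPM uses the TMM-scaled total, and log2 CPM a prior count of 2. Lengths, overlaps and start distances came from GENCODE mouse release 21 (GRCm38), with 1 transcript per gene chosen by coding status, APPRIS rank, support level and length. Of the members, 78 matched a gene model. The script was tested on simulated counts.

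The members and gene lists were chosen with earlier results of these data known. Members were named if called, if among the 3 highest or lowest fold changes or the 4 highest or 2 lowest levels of a subunit, if they failed the filter, or from a fixed list of known roles. Listed genes were named if called. Mrpl19, Mrpl15, Mrpl47, Mrps17 and the uncalled list genes were named after their values were seen. DESeq2 1.42.0, limma-voom (limma 3.58.1), other scalings, no filter, a replicate block, each library left out, other subunit assignments and members without exon overlap were the alternatives. Intervals are at 95%, and floors for a count of 0 cover counting error only. The mitochondrial rRNAs were not analysed here.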

Additional observations from a re-analysis of the deposited data

How the results depend on the processing

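The count of members called, 0 in edgeR, became 3 (2 large, 1 small) with DESeq2 and 1 (small) without the filter on low counts. It was 0 with DESeq2's size factors, upper quartile factors, library size only, limma-voom and the replicate block, and for members without exon overlap. Leaving out 1 library gave 0 to 5 members called, 0 to 4 in the large and 0 to 1 in the small subunit. The median log2 fold change ran from -0.18 to -0.023 in the large and from -0.23 to -0.027 in the small subunit when 1 library was left out, and from -0.16 to -0.11 and from -0.16 to -0.10 under the other alternatives. A library left alone in its group was assumed to vary like the other group. Genes called in the related lists numbered 4 in edgeR, 22 with DESeq2, 16 without the filter, 7 with the replicate block and 0 to 26 with 1 library left out. Of 407 values under the alternatives for the 37 tested members named by rule, which leaves out Mrpl19, Mrpl15, Mrpl47 and Mrps17, 398 kept their direction and 8 passed the threshold. The 9 that turned did so with 1 library left out, in genes whose values then ran from -0.15 to 0.0052 for Mrpl44, -0.14 to 0.10 for Mrps15, -0.23 to 0.0070 for Mrps25, -0.20 to 0.15 for Mrps12, -0.30 to 0.045 for Mrps22, -0.83 to 1.10 for Mrps36, -0.11 to 0.37 for Mrpl18 and -0.022 to 0.45 for Mrpl28, with Mrps15 above 0 in 2 of its settings (0.084 and 0.10). The causes were not tested. Replicate numbers are shared only as numbers: the correlation of deviations between same-numbered libraries was 0.04 over 12752 genes, and the block moved the genes called in the whole table from 199 to 401 lower and from 305 to 488 higher. Tested members had 9 to 2172 counts per library, the fewest in Mrps36.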
